A study of Mus musculus with 11 samples.

Results

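The genes described here were the 10 BCL-2 family members Bcl2, Bcl2l1, Mcl1, Bax, Bak1, Bcl2l11, Bad, Bid, Bbc3 and Pmaip1, taken by their symbols from a table of 32469 mouse genes. The rule used their names and no measured value. Bulk RNA-seq was performed on T cells from tumors of Lewis lung carcinoma (LLC), a transplantable mouse lung cancer line, with a library from each of 11 wild-type C57BL/6 mice. The mice were female, were obtained at 8 weeks of age and carried tumors in both flanks. In the anti-LAG-3 group (labelled aLAG3, n = 6), 200 µg of the antibody clone C9B7W was injected on day 14 and again on day 16 of tumor growth, whereas the untreated group (n = 5) received no antibody. LAG-3 is an inhibitory receptor of activated and exhausted T cells. The sort gate, CD8+PD-1+Ly108+TIM-3- with a further negative marker, selected precursor exhausted cells, the self-renewing fraction of exhausted CD8+ T cells. The series record and the study's methods differ on the day of the later tumor excision.

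BCL-2 family proteins set whether a cell dies through its mitochondria. The effectors BAX and BAK open the outer mitochondrial membrane, the guardians BCL-2, BCL-XL and MCL-1 hold them back, and the BH3-only proteins BIM, BAD, BID, PUMA and NOXA act on guardians or effectors through a short helix called the BH3 region. In CD8+ T cells, BIM is known for the death of activated cells as a response contracts, and BCL-2 and MCL-1 for the survival of memory cells.

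The untreated libraries held 317449 to 1271063 counts and those of the anti-LAG-3 group 313524 to 1901374. No pair of libraries agreed within sampling noise (chi-square per degree of freedom of 1.41 to 2.66 over 55 pairs). The sums of 6 CD8 T cell markers (Cd8a, Cd8b1, Cd3e, Cd3d, Cd3g and Trac) were 4846 to 5141 CPM (counts scaled to a common library size) in untreated and 4880 to 5388 CPM in anti-LAG-3 libraries. Those of 5 precursor exhausted cell markers (Pdcd1, Slamf6, Tcf7, Tox and Lag3) were 1306 to 1614 and 1252 to 1645 CPM, and each of these 5 genes was detected in all libraries. In edgeR's test, 0 of the 5 were called, with Tox at a log2 fold change of 0.32 (unadjusted p = 0.0183, adjusted p = 0.999) and Pdcd1 at -0.24 (unadjusted p = 0.0214, adjusted p = 0.999). Havcr2, the gene of TIM-3, which the sort excluded, held 0 to 7 counts per library. The sum of 10 myeloid markers was 47.6 to 94.5 CPM in untreated and 55.3 to 112 CPM in anti-LAG-3 libraries, with S100a8 and S100a9 at 0, and that of 6 B cell markers was 6.30 to 19.4 and 0 to 25.5 CPM. The ranges were 9.45 to 33.8 and 15.3 to 26.6 CPM for 3 NK cell markers, 312 to 349 and 332 to 404 CPM for 4 CD4 and regulatory T cell markers, and 140 to 204 and 153 to 214 CPM for 6 tumor and stroma markers. Of the 4 CD4 and regulatory T cell markers only 1 passed the filter on low counts, so that sum rests largely on 1 gene. What part these other cell types had in the results was not tested. In bulk RNA, fewer cells of a type and less RNA per cell cannot be told apart.

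The BH3 region is the sequence that all members share, and it is shown to let their coding DNA be compared. A 6-codon core was searched in frame in the annotated coding sequences of GRCm38 (GENCODE M21): a leucine codon, any 2 codons, a codon for alanine, isoleucine, methionine or valine, a codon for glycine, alanine or serine, and an aspartate codon. The core was found in 10 of 10 members and in 1939 of 21534 coding genes (9.00%). Each amino acid allowed in the 2 codons before the aspartate occurs in the stretches below, so finding the core in every member is no independent result. A match is a description of the letters and was not tested as a binding region. In the stretches below, read 5′ to 3′ on the coding strand, the capitals mark the core, and all bases are exonic and coding.
Bcl2: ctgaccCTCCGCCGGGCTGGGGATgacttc
Bcl2l1: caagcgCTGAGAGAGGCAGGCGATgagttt
Mcl1: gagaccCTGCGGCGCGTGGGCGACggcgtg
Bax: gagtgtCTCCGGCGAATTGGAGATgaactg
Bak1: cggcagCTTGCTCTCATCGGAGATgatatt
Bcl2l11: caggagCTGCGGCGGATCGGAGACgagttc
Bad: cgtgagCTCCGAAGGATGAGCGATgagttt
Bid: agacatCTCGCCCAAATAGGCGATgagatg
Bbc3: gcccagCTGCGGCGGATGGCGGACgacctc
The core spanned codons 94 to 99 of 236 in Bcl2, 90 to 95 of 233 in Bcl2l1 and 194 to 199 of 331 in Mcl1. In the effectors it lay at codons 63 to 68 of 192 (Bax) and 76 to 81 of 209 (Bak1). Among BH3-only members it lay at codons 150 to 155 of 196 in Bcl2l11, 151 to 156 of 204 in Bad, 90 to 95 of 195 in Bid and 141 to 146 of 193 in Bbc3. The GC content of the stretches ran from 50% in Bak1 and Bid to 80% in Mcl1. The coding sequence of Pmaip1, of 103 codons, held 2 matches.

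The order of the members by level depended on whether gene length was taken into account. For a first order, CPM were divided by the summed exon length of each gene in kilobases. Bax stood first at 109 ± 14.4 CPM per kb (SD, n = 11 here and for the other members), and was above Pmaip1, the next gene, in 11 of 11 libraries. Pmaip1 followed at 36.2 ± 3.90 and Bak1 at 30.1 ± 6.19 CPM per kb, and these neighbours did not differ beyond their SDs. Mcl1 reached 22.5 ± 5.18 CPM per kb, with an SD range that overlapped that of Bak1. A close group of 4 genes came next, with Bad at 13.7 ± 2.99, Bcl2l1 at 11.6 ± 6.64, Bcl2l11 at 10.7 ± 2.45 and Bcl2 at 10.5 ± 2.13 CPM per kb, in which no gene was separated from its neighbour by the SDs. Bbc3 (3.91 ± 2.27) and Bid (3.30 ± 1.13 CPM per kb) were lowest and did not differ beyond their SDs. Taking the longest transcript in place of all exons exchanged Mcl1 with Bad and Bbc3 with Bid. Libraries were fragmented after PCR from oligo-dT primed cDNA, and whether counts scale with gene length is not given in the sources used here. Without division by length, mean CPM were 172 for Bax, 98.8 for Pmaip1, 96.6 for Bcl2, 85.6 for Bcl2l11, 77.0 for Mcl1, 72.3 for Bak1, 53.0 for Bcl2l1, 35.1 for Bad, 11.7 for Bid and 8.31 for Bbc3. On this scale Bcl2 and Bcl2l11 stood above Mcl1 and Bak1, the reverse of their order per kb, so the place of these 4 genes is uncertain.

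**Figure D1:**
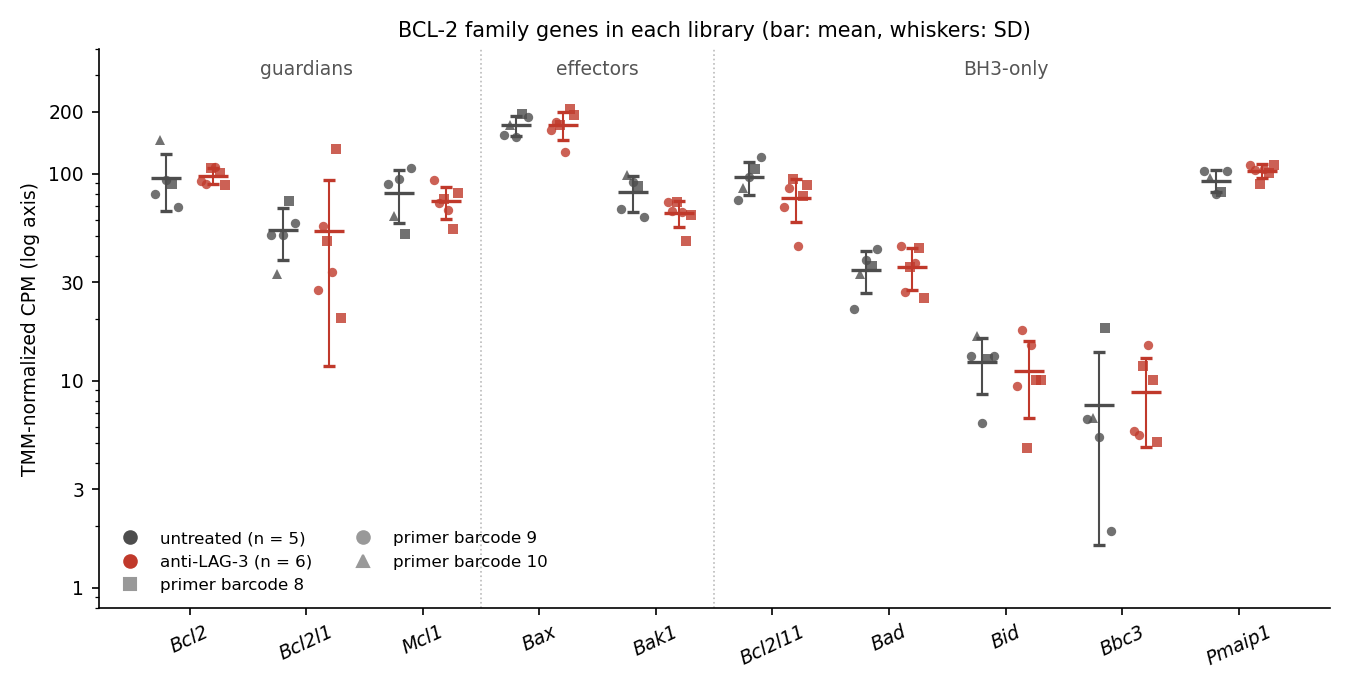
TMM-normalized CPM (log axis) of the 10 members in each library, with untreated libraries in grey and anti-LAG-3 libraries in red, marker shapes for the primer barcode, bars for means and whiskers for SDs. The groups overlap for every member, and the widest anti-LAG-3 spread is that of Bcl2l1, from 20.2 to 132 CPM.

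Comparing anti-LAG-3 with untreated mice asked whether LAG-3 blockade was accompanied by a change in survival or death gene mRNA in the precursor exhausted cells. No member changed past the threshold. By the quasi-likelihood test of edgeR, adjusted after Benjamini and Hochberg over 6949 tested genes, 0 of 8 tested members were called, against 0 of all tested genes (0%), and the lowest adjusted p of any gene was 0.999. Unadjusted p-values under 0.05 were found for 0 of 8 members, against 259 of 6949 genes (3.73%), of which 121 (1.74%) were higher and 138 (1.99%) lower in the anti-LAG-3 group. DESeq2 called 0 members and put 163 genes at an unadjusted p under 0.05. By fitted log2 fold change, 4 members lay above and 4 below 0, with a median of -0.08, whereas the median over all tested genes was 0.0045 and 48.9% of them lay below 0. Bid and Bbc3 fell below the filter on low counts and were compared by an exact permutation test. The p-values weigh the group difference against the spread between these libraries.

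Among the guardians, Bcl2 and Bcl2l1 had nearly the same mean in both groups. Bcl2 (GRCm38 chromosome 1, 106538178-106714274, minus strand, with the same build for the other genes) blocks BAX and BAK and sequesters BIM. Its CPM in the untreated libraries 1 to 5 were 79.7, 145, 93.4, 89.6 and 69.4, while the anti-LAG-3 libraries ran from 88.2 through a median of 96.8 to 108. All 6 anti-LAG-3 libraries thus lay inside the untreated range. The means were 95.4 ± 29.3 (SD, n = 5) and 97.6 ± 8.72 CPM (SD, n = 6). Anti-LAG-3 over untreated gave a log2 fold change of 0.08 (SE 0.15, 95% interval -0.22 to 0.39, unadjusted p = 0.577 in edgeR's quasi-likelihood test). It was 0.0059 without untreated replicate 5 and 0.21 without untreated replicate 2, the only library of barcode 10. Bcl2 showed a coefficient of variation of 30.7% in the untreated and 8.93% in the anti-LAG-3 libraries, a difference that was not tested. The untreated spread includes untreated replicate 2, at 145 CPM the highest of all libraries. In transcripts, 5.25% of the 50-base stretches of Bcl2 also occur in other genes.

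Bcl2l1 (chromosome 2, 152780668-152831728, minus strand) encodes BCL-XL, a guardian also known as a target of cytokine signaling. It was measured at 50.9, 33.0, 50.7, 74.3 and 58.1 CPM in untreated libraries 1 to 5. In the anti-LAG-3 group it ran from 20.2 through a median of 40.4 to 132 CPM, so that this group held both the highest and the lowest of the 11 libraries. The highest value, in anti-LAG-3 replicate 5, rested on 39 counts (exact 95% Poisson interval 93.8 to 180 CPM), and the lowest, in replicate 6, on 8 counts (8.71 to 39.7 CPM). These intervals cover counting error only and do not overlap. Fitted over all libraries, the log2 fold change was -0.17 (SE 0.28, 95% interval -0.75 to 0.41, edgeR unadjusted p = 0.558). It was -0.45 (edgeR unadjusted p = 0.0545) without anti-LAG-3 replicate 5 and -0.012 without anti-LAG-3 replicate 1. The likelihood ratio test gave -0.090 (unadjusted p = 0.787) and DESeq2 gave -0.065 (unadjusted p = 0.884).

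Mcl1 (chromosome 3, 95658788-95663176, plus strand) encodes a short-lived guardian that binds NOXA, BIM and BAK. The untreated libraries 1 to 5 measured 89.5, 62.6, 94.3, 51.2 and 106.9 CPM. In the anti-LAG-3 libraries the lowest was 54.1, the median 74.0 and the highest 93.0 CPM, all within the untreated range, and 5 of 6 lay below the untreated median. Mcl1 had a log2 fold change of -0.17 (SE 0.16, 95% interval -0.50 to 0.16, edgeR unadjusted p = 0.303). Without untreated replicate 5 it was -0.09, and without anti-LAG-3 replicate 1 or untreated replicate 4 it was -0.27.

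Of the effectors, Bax had the fold change nearest to 0 of all tested members. Bax (chromosome 7, 45461697-45466898, minus strand), which moves from the cytosol to the mitochondrial membrane when activated, was measured at 154, 171, 150.4, 195 and 188 CPM in the untreated libraries 1 to 5. Its anti-LAG-3 values ran from 128 through 175 to 206 CPM, with a library beyond the untreated range at each end. The log2 fold change was 0.012 (SE 0.12, 95% interval -0.23 to 0.26, edgeR unadjusted p = 0.921), and its sign turned with the primer barcode in the model, at -0.034. Of the 50-base stretches of Bax transcripts, 8.51% also occur in Gm45808, an overlapping gene on the same strand.

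Bak1 (chromosome 17, 27019810-27029009, minus strand), the effector that sits in the mitochondrial membrane, was lower in the anti-LAG-3 libraries by a margin that did not pass the test. Untreated libraries 1 to 5 measured 67.3, 98.9, 91.7, 87.1 and 61.9 CPM. The anti-LAG-3 libraries ran from 47.3 through a median of 66.1 to 73.1 CPM. All 6 of these lay below the untreated median of 87.1 CPM, but 1 of 6 lay below the lowest untreated library, so the groups overlapped. The means were 81.4 ± 16.0 (SD, n = 5) and 64.8 ± 9.49 CPM (SD, n = 6). The log2 fold change was -0.26 (SE 0.15, 95% interval -0.57 to 0.045, edgeR unadjusted p = 0.0909), a fold of 0.833. Leaving out untreated replicate 5 or 1 gave -0.34 and -0.35 (edgeR unadjusted p = 0.0397 and 0.0429, adjusted p of at least 0.999 in both). Other leave-outs moved it toward 0. It was -0.19 without untreated replicate 3 and -0.22 without untreated replicate 2 or anti-LAG-3 replicate 5 (edgeR unadjusted p = 0.265, 0.171 and 0.148). The gene overlaps Ggnbp1 on the opposite strand, with which 17.1% of its 50-base stretches are shared, so its counts are uncertain if strand was not used.

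Of the BH3-only members, Bcl2l11 (chromosome 2, 128126038-128162547, plus strand) had the fold change farthest from 0. It encodes BIM, which binds all guardians and can activate BAX and BAK. Its CPM in untreated libraries 1 to 5 were 74.7, 85.7, 96.1, 105 and 120.0, and in the anti-LAG-3 libraries they ran from 44.7 through a median of 81.7 to 94.4. All 6 anti-LAG-3 libraries lay below the untreated median of 96.1 CPM and 2 of 6 below the lowest untreated library. The means were 96.3 ± 17.4 (SD, n = 5) and 76.7 ± 17.9 CPM (SD, n = 6). The log2 fold change was -0.33 (SE 0.17, 95% interval -0.67 to 0.012), a fold of 0.795 with an interval of 0.627 to 1.01. The unadjusted p was 0.0581 and the adjusted p 0.999 in edgeR's quasi-likelihood test. Lowest of all was anti-LAG-3 replicate 4, without which the log2 fold change was -0.21 (edgeR unadjusted p = 0.189). Without untreated replicate 5 it was -0.24 (edgeR unadjusted p = 0.179). It was -0.44 (edgeR unadjusted p = 0.0192, adjusted p = 1.000) without untreated replicate 1. Leaving out anti-LAG-3 replicate 2, 3 or 6 gave -0.41, -0.39 and -0.37, with edgeR unadjusted p of 0.0303, 0.0325 and 0.042 and a smallest adjusted p of 0.914. Leaving out untreated replicate 3 or 4 or anti-LAG-3 replicate 1 gave -0.33, -0.30 and -0.30 (edgeR unadjusted p = 0.0934, 0.0974 and 0.104). Without the filter on low counts the log2 fold change was -0.32 (edgeR unadjusted p = 0.037, adjusted p = 0.722). The likelihood ratio test gave -0.34 (unadjusted p = 0.0658) and DESeq2 gave -0.34 (unadjusted p = 0.0737).

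The other BH3-only members had smaller fold changes or were thinly counted. Pmaip1, which encodes NOXA, the BH3-only protein that binds MCL-1, was measured at 103.5, 95.6, 80.1, 82.0 and 103.2 CPM in the untreated libraries 1 to 5. Its anti-LAG-3 values ran from 89.7 through a median of 105 to 110.9 CPM, with 4 of 6 libraries above the highest untreated library. Its log2 fold change was 0.17 (SE 0.12, 95% interval -0.09 to 0.42, edgeR unadjusted p = 0.188), and 0.09 without untreated replicate 3. Bad (chromosome 19, 6941861-6951899, plus strand) encodes a BH3-only protein held inactive by phosphorylation after growth factor signals. It measured 22.2, 33.0, 38.3, 35.9 and 43.1 CPM in the untreated libraries 1 to 5 and from 25.2 through 36.3 to 44.6 CPM in the anti-LAG-3 libraries, ranges that overlapped almost wholly. Its log2 fold change was 0.063 (SE 0.22, 95% interval -0.39 to 0.51, edgeR unadjusted p = 0.777), which was -0.12 without untreated replicate 1. Bad shares 17.2% of its 50-base stretches with Gpr137 on the opposite strand.

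Bid (chromosome 6, 120891930-120916853, minus strand) encodes the protein that caspase-8 cleaves to link death receptors to mitochondria. It held only 2 to 32 counts per library. Its CPM were 13.1, 16.5, 6.23, 12.8 and 13.1 in the untreated libraries 1 to 5 and ran from 4.72 through 10.1 to 17.6 after anti-LAG-3. The mean log2 CPM, anti-LAG-3 minus untreated, differed by -0.15 (exact permutation test, two-sided, p = 0.61). The sign turned to 0.32 within barcode 9, to 0.14 in edgeR's fit without the filter and to 0.021 without anti-LAG-3 replicate 3. Of its 50-base stretches, 16.4% are shared with Bcl2l13 on the opposite strand.

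Bbc3 (chromosome 7, 16308393-16318205, plus strand), the p53 target that encodes PUMA, held 1 to 12 counts. Untreated libraries 1 to 5 measured 6.57, 6.59, 5.34, 17.9 and 1.88 CPM, a range that enclosed all 6 anti-LAG-3 libraries, which ran from 5.04 through 7.92 to 14.9 CPM. The log2 CPM difference was 0.26 (exact permutation test, two-sided, p = 0.517), but 0.0054 without untreated replicate 5 and 0.55 without untreated replicate 4. Within barcode 9 it was 0.61.

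**Figure D2:**
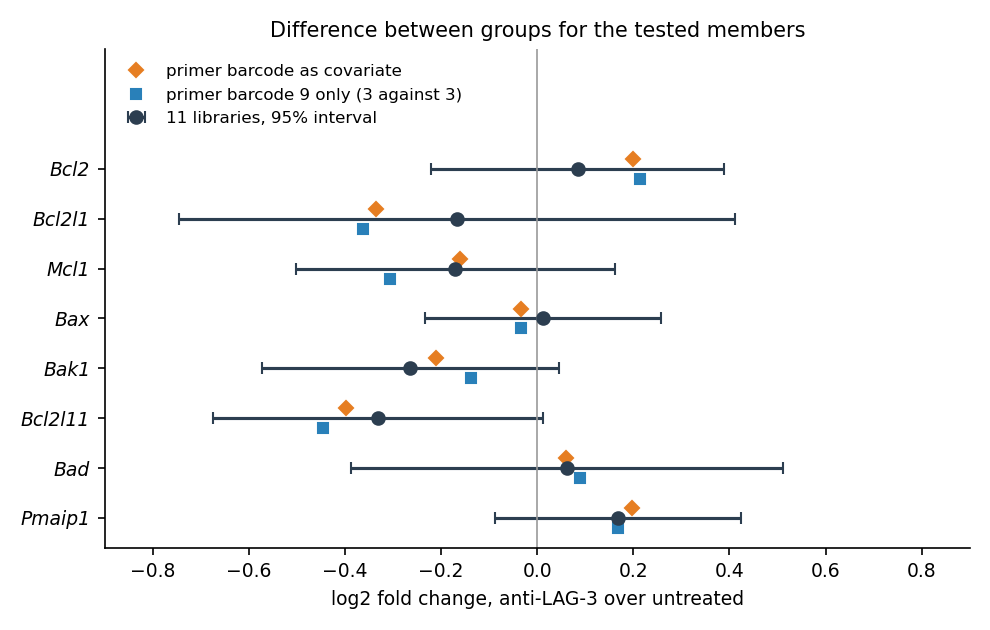
Log2 fold changes (anti-LAG-3 over untreated) of the 8 tested members, with 95% intervals from 11 libraries (circles), with the primer barcode as a covariate (diamonds) and from primer barcode 9 alone (squares, 3 against 3 libraries). The intervals drawn, those of the fit to 11 libraries, all include 0, with that of Bcl2l11 (-0.67 to 0.012) nearest to leaving it out and that of Bcl2l1 (-0.75 to 0.41) the widest.

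The libraries carried 3 primer barcodes, which were not spread evenly over the groups. Barcode 9 held 3 untreated and 3 anti-LAG-3 libraries with totals of 566144 to 1901374, barcode 8 held 1 untreated and 3 anti-LAG-3 libraries with totals of 313524 to 451465, and barcode 10 held 1 untreated library. With the barcode as a covariate, Bcl2l11 was at a log2 fold change of -0.40 (edgeR unadjusted p = 0.0301, adjusted p = 1.000), and within barcode 9 it was at -0.45 (edgeR unadjusted p = 0.0465, adjusted p = 0.986). Bcl2 was at 0.20 and 0.21 in the same order, Bcl2l1 at -0.33 and -0.36, and Mcl1 at -0.16 and -0.31. Bak1, at -0.21 and -0.14, moved toward 0. Bad was at 0.060 and 0.090 and Pmaip1 at 0.20 and 0.17. None of these passed the adjusted threshold. Barcode 8, with its single untreated library, was not fitted alone, and barcode 10 holds no anti-LAG-3 library to compare.

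The balance of guardians against death genes was described by log2 ratios of CPM within each library, with a prior count of 2 and no test. Bcl2 over Bcl2l11, the ratio of BCL-2 to BIM mRNA, was 0.089, 0.74, -0.040, -0.22 and -0.77 in the untreated libraries 1 to 5. After anti-LAG-3 it ran from 0 through 0.27 to 1.23. The anti-LAG-3 values were thus at or above 0, whereas untreated values lay on both sides, and the groups overlapped. A value of 0 means equal CPM of both mRNAs without division by gene length, so its place depends on the scale. The group means were -0.040 ± 0.55 (SD, n = 5) and 0.37 ± 0.45 (SD, n = 6), a difference of 0.41. This difference was 0.23 without untreated replicate 5, 0.24 without anti-LAG-3 replicate 4 and 0.80 within barcode 9. Mcl1 over Bcl2l11 differed by 0.24 (means of -0.27 ± 0.48 and -0.03 ± 0.42), but by 0.059 without untreated replicate 4 and 0.37 without untreated replicate 1. Against the effector Bax, the difference was 0.068 for Bcl2 (means of -0.87 ± 0.44 and -0.80 ± 0.31) and -0.24 for Bcl2l1 (means of -1.67 ± 0.36 and -1.91 ± 0.83). Leaving out single libraries moved the Bcl2 to Bax difference from -0.066 (without untreated replicate 5) to 0.23 (without untreated replicate 2), with a sign that also turned without anti-LAG-3 replicate 4, and it was 0.33 within barcode 9. The Bcl2l1 to Bax difference was -0.49 without anti-LAG-3 replicate 5, -0.0020 without anti-LAG-3 replicate 6 and -0.40 within barcode 9. Over all 11 libraries, each of these differences was smaller than the SD within either group, and the ranges overlapped in all 4 ratios.

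**Figure D3:**
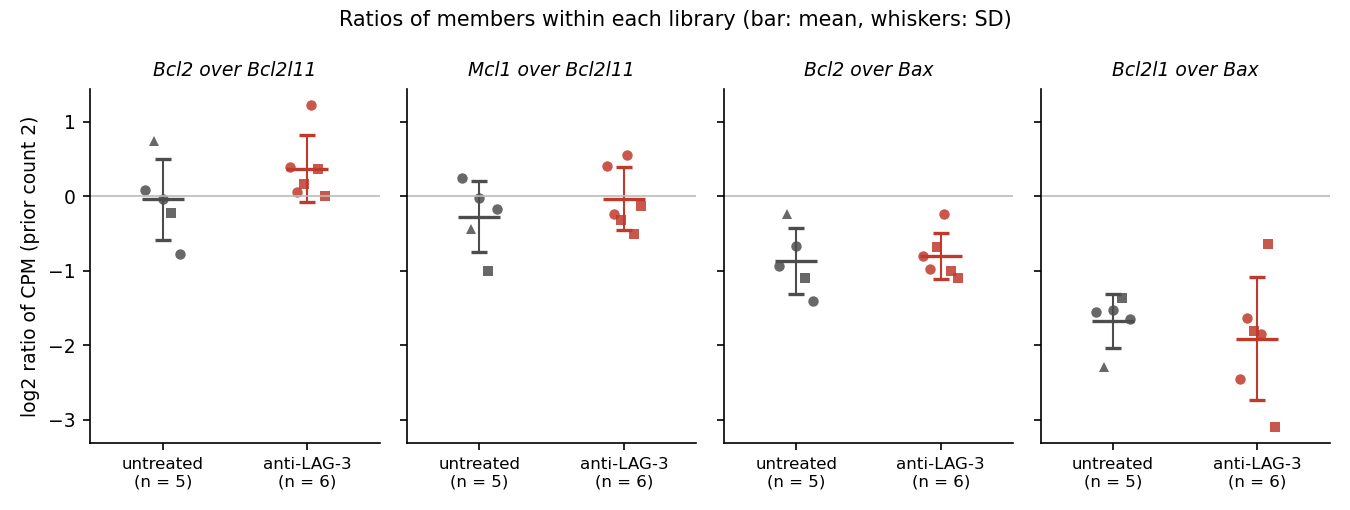
Log2 ratios of CPM (prior count 2) of 4 pairs of members in each library, with untreated in grey and anti-LAG-3 in red, bars for means, whiskers for SDs, and squares, circles and triangles for primer barcodes 8, 9 and 10. Anti-LAG-3 replicate 4, at 1.23, stands above the other anti-LAG-3 libraries in Bcl2 over Bcl2l11.

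The members differed in how far they varied within groups. For each gene, the chi-square of the counts around their group's expected counts was divided by the degrees of freedom, so that counting error alone gives about 1. The median over the tested genes was 1.46. Bcl2l1 stood at 8.05, above 98.0% of the tested genes, with a biological coefficient of variation of 0.285 against a common value of 0.115. Bcl2l11 came next at 2.83 (above 86.0% of tested genes). Bax at 2.12, Mcl1 at 2.02, Bcl2 at 1.93 and Bad at 1.69 lay between the median and the upper quartile of 2.15, whereas Bak1 (1.20) lay below the median. At 0.661, above only 8.98% of the tested genes, Pmaip1 varied least and no more than counting error. The measure rises with the number of reads of a gene as well as with its variation, and the untested Bid and Bbc3 stood at 1.19 and 1.98.

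**Figure D4:**
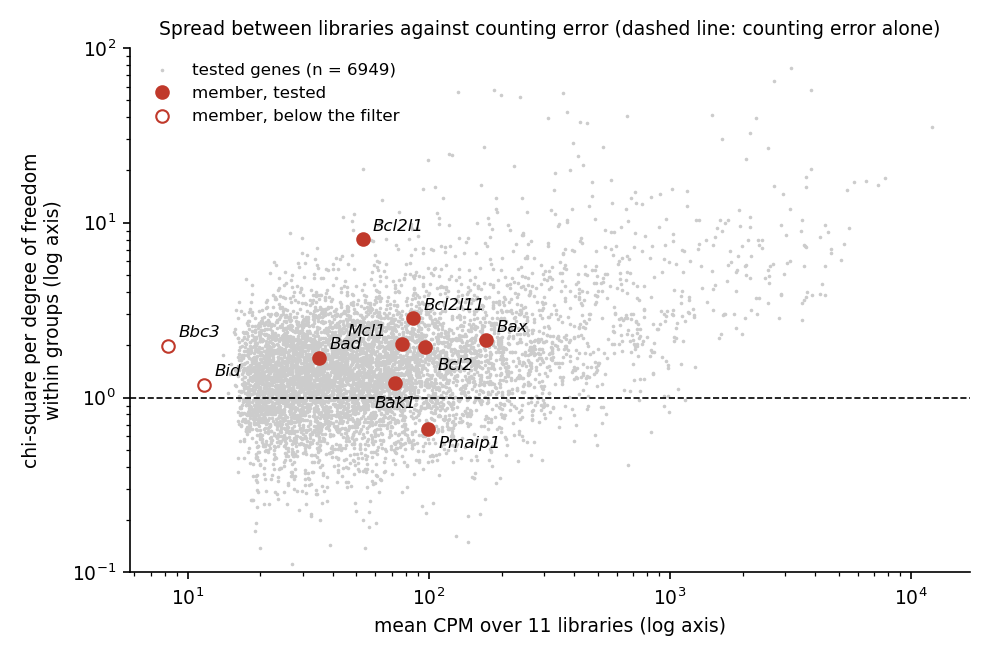
Chi-square per degree of freedom within groups (log axis) against mean CPM over 11 libraries (log axis) for 6949 tested genes (grey) and the members (red, open where below the filter), with counting error alone as a dashed line. Bcl2l1 (8.05) stands above the members of like CPM and Pmaip1 (0.661) below the line.

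No single library was extreme in most members. Untreated replicate 5 was highest for 2 members (Mcl1 and Bcl2l11) and lowest for 2 (Bcl2 and Bbc3), and anti-LAG-3 replicate 5 was highest for 2 (Bcl2l1 and Bax) and lowest for 1 (Bak1). Untreated replicate 2, the only library of barcode 10, was highest for Bcl2 and Bak1. Anti-LAG-3 replicate 4 was lowest for Bax and Bcl2l11.

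**Figure D5:**
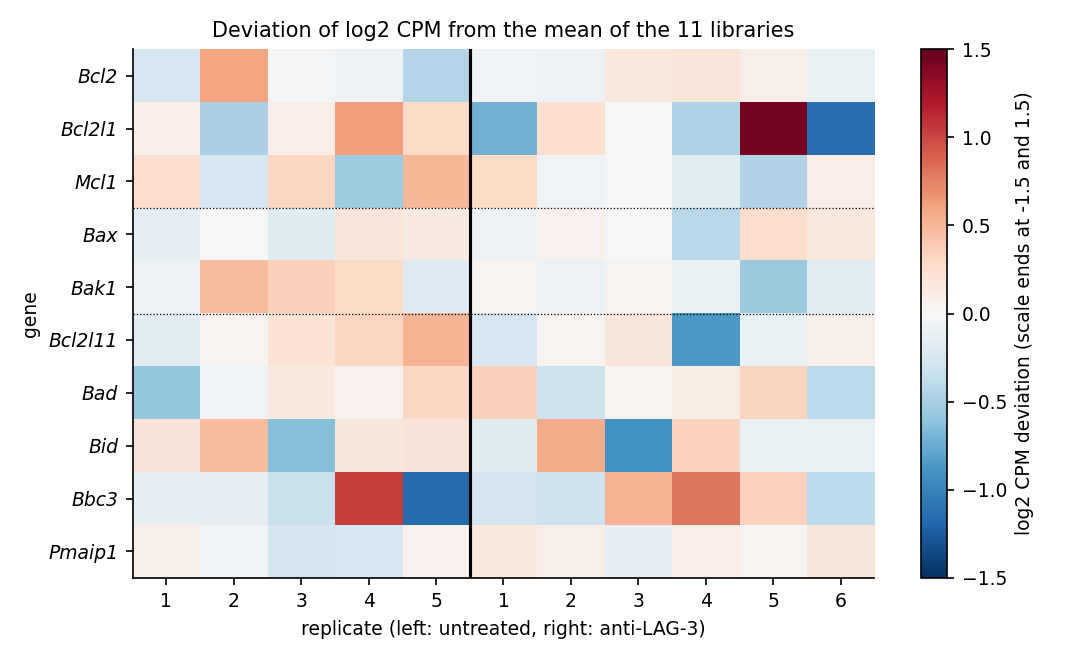
Deviation of log2 CPM from the mean of the 11 libraries for each member (rows) in each library (columns), red for higher and blue for lower, with the scale ending at -1.5 and 1.5. The strongest colors are those of Bcl2l1 in anti-LAG-3 replicates 5 (1.43) and 6 (-1.13) and of the thinly counted Bbc3.

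Of 61 further genes of the death pathway, 60 were in the table and 41 were tested. As for the members, 0 of 41 were called in edgeR's quasi-likelihood test. Unadjusted p-values under 0.05 were found for 1 higher and 2 lower genes, beside 3.73% of all tested genes (1.74% higher and 1.99% lower). By log2 fold change 16 lay above and 25 below 0, with a median of -0.021. The other guardians were led by Bcl2a1a, Bcl2a1b and Bcl2a1d, copies of the gene of A1, which is induced by antigen receptor signals. They reached 351, 542 and 487 CPM per kb in untreated and 349, 492 and 441 CPM per kb in anti-LAG-3 libraries, all above the 109 CPM per kb of Bax. Between 69.0% and 79.5% of their 50-base stretches are shared with other genes, so the split of reads among the copies is uncertain. Their log2 fold changes ran from -0.16 to -0.036 (smallest edgeR unadjusted p = 0.0986), and Bcl2l2, the gene of BCL-W, held 25 counts in all. Of the 10 other effector and BH3-only relatives, 3 were tested, at log2 fold changes of -0.13 to 0.044. The effector Bok and the BH3-only gene Hrk had 0 counts in all 11 libraries.

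Downstream of the mitochondria, 8 of 14 genes of the apoptosome and caspases were tested, with 3 above and 5 below 0 and a range of -0.17 to 0.17. All 5 inhibitors of apoptosis were tested, with 4 above and 1 below 0. Xiap, which binds and blocks caspases, measured 46.1 to 63.2 CPM in untreated and 66.1 to 84.5 CPM in anti-LAG-3 libraries. It was the only one of these 41 pathway genes whose groups did not overlap, against 33 of 6949 tested genes (0.475%). Its log2 fold change was 0.36 (SE 0.14, edgeR unadjusted p = 0.019, adjusted p = 0.999).

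Among 9 death receptors and adaptors, 6 were tested, with 1 above and 5 below 0. Tnfrsf1b, the gene of the TNF receptor TNFR2, measured 217 ± 20.5 (SD, n = 5) and 182 ± 30.5 CPM (SD, n = 6). This was a log2 difference of -0.25 (SE 0.11, edgeR unadjusted p = 0.0364, adjusted p = 0.999). Of 8 mitochondrial partners 7 were tested, at -0.09 to 0.16. Of 10 regulators of BCL-2 proteins 9 were tested, with 3 above and 6 below 0. Stat5b, a transcription factor activated by IL-2 and IL-7, measured 51.3 ± 9.83 (SD, n = 5) and 36.7 ± 7.36 CPM (SD, n = 6). Its log2 fold change was -0.44 (SE 0.18, edgeR unadjusted p = 0.0227, adjusted p = 0.999). Il7r, the IL-7 receptor gene, stood at 252 and 240 CPM, a log2 fold change of -0.031 (SE 0.12).

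For the 3 members with the highest CPM, the genes most alike over the 11 libraries were found by Pearson's r of log2 CPM among 6941 other tested genes. Bax was most like Col4a3bp (r = 0.905), which encodes a ceramide transfer protein, and Nol7 (r = 0.850), a nucleolar protein gene. Pmaip1 was most like Polb (r = 0.863), which encodes DNA polymerase beta, and Apobec3 (r = 0.860), a cytidine deaminase gene. Bcl2 was most like Gm43247 (r = 0.893) and Arpc2 (r = 0.893), a subunit of the actin-nucleating ARP2/3 complex. These are the highest of many values over 11 libraries that share group and depth differences, and are a description.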

How the data were processed

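Per the labels, precursor exhausted cells of each mouse were sorted, and mRNA was captured on oligo-dT beads, reverse transcribed with template switching, amplified and fragmented. The authors trimmed reads with cutadapt 4.1 and mapped them to GRCm38 with Bowtie2 2.4.5 according to the submitters' processing notes (the methods name other versions), and deposited raw counts per gene symbol. Handling of multi-mapping reads and strand is not given in the sources used here. No molecular identifiers are named for these counts, so intervals cover counting error only.

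Genes were filtered with filterByExpr (at least 17.7 CPM in 5 or more libraries and 15 counts in all), normalized by TMM and tested with edgeR 4.0.16 (glmQLFTest, R 4.3.3, threshold 0.05, Benjamini-Hochberg adjustment over all tested genes). CPM use TMM-scaled library sizes. Alternatives were the likelihood ratio test, DESeq2 1.42.0, RLE size factors, no filter, the primer barcode, a prior count of 0.5 for ratios, and leaving out each library. Named genes were all members, for the 3 with the highest CPM the 2 most alike genes each, and from each pathway list up to 2 genes at an unadjusted p under 0.05. Others illustrate their list. The members and lists were chosen with earlier results of these data known. The fit was also run on simulated counts, with an outcome that is not given here. Some markers and pathway genes are not reported here by name.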

Additional observations from a re-analysis of the deposited data

Results flagged for a closer look

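Among 28 sets of 5 or 6 values (each member and ratio in each group), 3 held a library whose gap to the nearest other library, divided by the range of the set, exceeded Dixon's 95% critical value, where chance gives about 1.4. Bak1 in anti-LAG-3 replicate 5 was at 5.64 log2 CPM, below the other anti-LAG-3 libraries at 6.04 to 6.24. Bid in untreated replicate 3 was at 3.15 log2 CPM, below the other untreated libraries at 3.95 to 4.26. The log2 ratio of Bcl2 over Bcl2l11 in anti-LAG-3 replicate 4 was 1.23, above the others at 0 to 0.40.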

How the results depend on the processing

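In every alternative 0 members were called. The number of members at an unadjusted p under 0.05, 0 over all libraries, was 1 without the filter, with the barcode as a covariate and within barcode 9, and 0 to 2 without single libraries, the 2 (Bcl2l11 and Bak1) without untreated replicate 1. Without the filter on low counts 3 of 24024 genes were called and 1095 were at an unadjusted p under 0.05 (main value 259). DESeq2 put 163 and primer barcode 9 alone 425 genes there, and leaving out single libraries 225 to 340. Leaving out single libraries gave 0 to 2 called genes over all, the 2 without anti-LAG-3 replicate 2. The log2 fold change of Bax (0.012) reversed to -0.034 with the barcode as a covariate and to -0.034 within barcode 9, and ranged from -0.045 to 0.088 without single libraries. That of Bad ranged from -0.12 to 0.19 and the log2 CPM difference of Bid from -0.33 to 0.021 without single libraries. Bid was at 0.14 fitted without the filter, and within barcode 9 at 0.32 and, fitted, at 0.45. The causes were not tested. Bcl2, Bcl2l1, Mcl1, Bak1, Bcl2l11 and Pmaip1 kept their direction in all 6 alternatives and 11 leave-outs. Bcl2l11 ranged from -0.45 to -0.32 over the alternatives and from -0.44 to -0.21 over the leave-outs, with a smallest adjusted p of 0.722. No paired analysis was possible because the labels number the libraries 1 to 11 with no library number shared between groups (replicate numbers here follow record order). The library titles also carry an index whose meaning is not given in the sources used here. Untreated replicates 2 and 3 and anti-LAG-3 replicate 5 shared an index, and untreated replicates 4 and 5 shared another. Each other library had its own index, and the part of this index was not tested. Depth was 313524 to 1901374 counts per library, and Bid and Bbc3, at 2 to 32 and 1 to 12 counts, fell below the filter.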
